A study of Mus musculus with 38 samples.

Results

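The genotype effect described here is the average difference between KO and WT intestinal epithelium during DSS colitis, taken over DSS days 3 and 7 in a single additive model with terms for day and genotype. Of the 38 libraries of the series, 28 entered it, namely those whose titles begin with d3 or d7, without the library labelled d3_KO_345. They form 4 groups of 7 libraries, WT day 3, KO day 3, WT day 7 and KO day 7, so that 14 KO libraries were compared with 14 WT libraries. Every gene that passed a filter on low counts was tested, and curated pathway and cell type lists are described by their members.

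KO mice (Hk2∆IEC) carried floxed Hk2 alleles and a Cre recombinase driven by the Villin promoter, which is active along the intestinal epithelium, and WT mice were littermates with the genotype Hk2fl/fl. Both genotypes therefore shared the floxed allele and differed in the Cre transgene. All were C57BL/6 mice. Per the protocols, mice given DSS were males of 10 to 12 weeks, the genotypes shared cages, and dextran sodium sulfate was given at 1.5% in the drinking water for 3 or 7 days. The samples are labelled as intestinal epithelial cells, whereas the series' own design line speaks of colon tissue. Each title carries its own animal number, but the labels do not state how many animals a library holds, so the p-values measure the spread between libraries.

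Hexokinases phosphorylate glucose to glucose 6-phosphate, the step that commits glucose to glycolysis, the pentose phosphate pathway or the hexosamine pathway. Hexokinase 2, encoded by Hk2, is an inducible form of the enzyme that also binds the voltage-dependent anion channel of the outer mitochondrial membrane. Cyclophilin D, encoded by Ppif, is a matrix protein that promotes opening of the mitochondrial permeability transition pore, and the series title links Hk2 to mitochondrial metabolism and cell death. DSS damages the colonic epithelium, and the damage is followed by leukocyte infiltration and epithelial repair.

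The 28 libraries held 25.2 to 60.6 M counts on genes (M for mega; median 44.6), and 19084 to 22854 genes had at least 1 count in a library. Defining epithelial markers were high throughout: the 11 epithelial genes summed to between 14998.5 and 25711 CPM (counts per M counts, scaled by the TMM method), while the 8 smooth muscle markers summed to at most 21.1 CPM. The colonocyte list summed to at least 8517 CPM in every library. Libraries that stand apart were the following. The library labelled d3_KO_345 held 444 CPM of Hk2 and 0.0424 CPM of Tdpx-ps1, against 70.9 to 129 CPM and 1.64 to 2.59 CPM in the other KO day 3 libraries, and thus went against its label. WT libraries d3_WT_381 and d7_WT_386 had the lowest totals, 26.7 and 25.2 M counts, and mitochondrial ribosomal RNA took 3.95% and 1.96% of their counts against a median of 0.893%. KO library d7_KO_420 had the highest neutrophil marker sum of the 28 libraries, 1867 CPM against a KO day 7 median of 149.9 CPM. Values without one of these libraries are given beside many of the results that turn on it, but not beside all.

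Over both DSS days, 1 of 16323 genes tested differed between KO and WT at an adjusted p under 0.05 (0.00613% of genes; edgeR quasi-likelihood test, Benjamini-Hochberg adjustment). That gene was Tdpx-ps1, a processed pseudogene that was higher in KO. Hk2 itself had a log2 fold change of -1.001 and an adjusted p of 0.0665, on the other side of the threshold. At an unadjusted p under 0.05 there were 3193 genes (19.6%), 1288 of them higher in KO (7.89%) and 1905 lower (11.7%), and these shares are the background for the list counts below. Of all genes tested 49% were above 0 and 51% below. The median log2 fold change of all genes tested was -0.0046, with quartiles of -0.13 and 0.12. An adjusted p under 0.1 was reached by 88 genes (0.539%), 24 higher and 64 lower in KO, with absolute log2 fold changes of 0.19 to 1.01 apart from Tdpx-ps1. Within each list, apart from a few genes that are not reported, the member with the smallest p in each direction is named (for cell types the member with the smallest p overall). Every other list member given by name, and Mtmr4, was chosen after its values were seen.

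**Figure D1:**
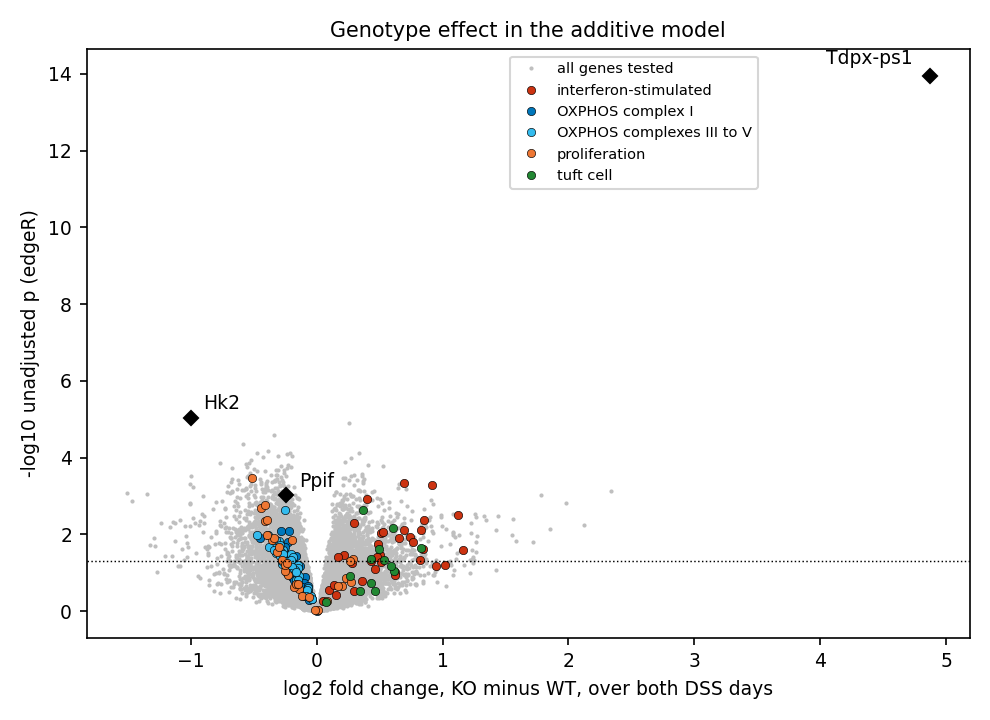
Log2 fold change of KO minus WT over both DSS days (horizontal axis) against -log10 of the unadjusted p (vertical axis) for the 16323 genes tested, with members of 5 lists coloured and Hk2, Tdpx-ps1 and Ppif marked by diamonds. The dotted line is an unadjusted p of 0.05. Tdpx-ps1 lies far from all other genes at a log2 fold change of 4.87, interferon-stimulated genes lie mostly to the right, and genes of oxidative phosphorylation lie to the left of 0.

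Tdpx-ps1 (ENSMUSG00000082431) lies at chr1:99790429-99791025 on the minus strand of GRCm38, and GENCODE M21 places it inside an intron of Cntnap5b, which is on the plus strand: none of the 46 annotated Cntnap5b exons overlaps it. It is a retrocopy related to Prdx2, which encodes peroxiredoxin 2, a cytosolic enzyme that reduces hydrogen peroxide. The first 240 bases of the pseudogene and of the coding part of Prdx2 (gene at chr8:84969587-84974834, plus strand) are shown because reads from such near copies are hard to assign. Both were read from GENCODE M21 transcripts, and capitals mark the 13 positions at which they differ.
Tdpx-ps1: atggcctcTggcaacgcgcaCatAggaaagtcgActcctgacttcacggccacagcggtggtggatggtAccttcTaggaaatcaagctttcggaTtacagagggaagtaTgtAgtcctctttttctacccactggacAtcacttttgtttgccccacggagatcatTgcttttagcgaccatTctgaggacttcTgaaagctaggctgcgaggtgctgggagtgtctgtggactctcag
Prdx2: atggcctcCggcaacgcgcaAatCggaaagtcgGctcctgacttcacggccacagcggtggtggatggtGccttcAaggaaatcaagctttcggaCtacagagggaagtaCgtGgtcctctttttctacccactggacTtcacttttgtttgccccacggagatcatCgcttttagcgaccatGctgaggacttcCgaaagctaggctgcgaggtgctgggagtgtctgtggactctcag
Over 597 bases the 2 sequences were 96.3% identical, with 22 mismatches and 0 gaps. Read in the frame of Prdx2, the pseudogene has 4 stop codons, the first at base 76, whereas Prdx2 has 1, at base 595.

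Tdpx-ps1 ranged from 1.64 to 2.59 CPM in KO day 3 (median 2.11) and from 1.44 to 2.22 CPM in KO day 7 (median 1.79). In WT it ranged from 0 to 0.136 CPM on day 3 (median 0.0909) and from 0 to 0.283 CPM on day 7 (median 0.0214). These levels rest on 49 to 126 counts in each KO library and 0 to 6 counts in each WT library. Among the 28 libraries KO and WT did not overlap on either day, and Tdpx-ps1 was the only gene tested of which this was true (0.00613%). The excluded library labelled d3_KO_345 held 2 counts (0.0424 CPM), inside the WT day 3 range, so the genotypes as labelled overlap on day 3 when it is included. The log2 fold change was 4.87 (SE 0.34, adjusted p = 1.85e-10, edgeR), with 4.78 on day 3 and 4.97 on day 7. Adding the excluded KO day 3 library gave 4.76, and without d3_WT_381 and d7_WT_386 it was 5.19. Prdx2 had a log2 fold change of -0.27 (adjusted p = 0.204), and -0.08 without those WT libraries. Whether the reads on Tdpx-ps1 came from that locus, from a modified copy or from Prdx2 was not tested. Of the 6 genes tested within 2 Mb of it, 0 were higher and 2 were lower at an unadjusted p under 0.05. The smallest p there was that of Gin1, with a log2 fold change of -0.21.

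Hk2 (chr6:82725025-82774454, minus strand) was lower in KO in direction on both days, and every one of the 14 KO libraries lay below the WT median of its day. In WT day 3 it ranged from 98.7 to 226 CPM (median 184), and in KO day 3 from 70.9 to 129 CPM (median 101). On day 7 it ranged from 232 to 595 CPM in WT (median 306) and from 57.0 to 262 CPM in KO (median 127). On each day 1 library made the groups overlap: d3_WT_346 held 98.7 CPM, inside the KO range, and d7_KO_420 held 262 CPM, above the lowest WT library. The WT day 7 maximum was d7_WT_356, and the next WT library held 314 CPM. Hk2 transcripts were still counted in all KO libraries, with 2673 to 10043 counts each. The files count over whole genes, so reads on a deleted and on an intact allele cannot be told apart, and Gm17034 overlaps Hk2 on the other strand while strand was ignored in counting.

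For Hk2 the log2 fold change was -1.001 (SE 0.19, unadjusted p = 9.18e-06, adjusted p = 0.0665, edgeR). It was -0.75 (SE 0.26) on day 3 and -1.26 (SE 0.26) on day 7, and the difference between the days of -0.51 (SE 0.36) had an unadjusted p of 0.169. Leaving out 1 library at a time moved the adjusted p between 0.00787 (without d7_KO_420) and 0.131. Without d3_WT_346 it was 0.0146, without d3_KO_350 0.0495 and without d7_WT_431 0.0496. The DESeq2 Wald test gave Hk2 an adjusted p of 0.000722, and with the library labelled d3_KO_345 the edgeR log2 fold change was -0.75 (adjusted p = 0.113). Of 34 genes tested within 2 Mb of Hk2, 2 were higher and 3 lower at an unadjusted p under 0.05. The smallest p among them was that of Pcgf1, with a log2 fold change of -0.30.

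Hk1, Hkdc1 and Hk3 did not pass the test. Hk1, the constitutive form, had a log2 fold change of 0.12 (SE 0.08, adjusted p = 0.358), and Hkdc1, a hexokinase-like enzyme of the gut, had 0.12 (SE 0.18, adjusted p = 0.728). The Hkdc1 value depended on d7_KO_420, which held 172 CPM against a KO day 7 median of 57.6, and was -0.068 without it. Hk3, the form of myeloid cells, had 0.48 (SE 0.42). Compared per length, as CPM per kb of exon, the level of Hk2 in WT was 29.7 ± 8.22 (SD, n = 7) on day 3, beside 27.95 ± 3.97 for Hk1. On day 7 the WT levels were 55.4 ± 20.1 for Hk2 and 29.4 ± 3.76 for Hk1. In KO the per-length level of Hk2 was 17.7 ± 3.66 on day 3 and 23.3 ± 11.7 on day 7, and that of Hk1 was 30.7 ± 3.74 and 32.02 ± 5.75. The per-length ranges of Hk1 and Hk2 overlapped in WT day 3 and KO day 7. In WT day 7 all Hk2 levels were above those of Hk1, and in KO day 3 all were below.

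**Figure D2:**
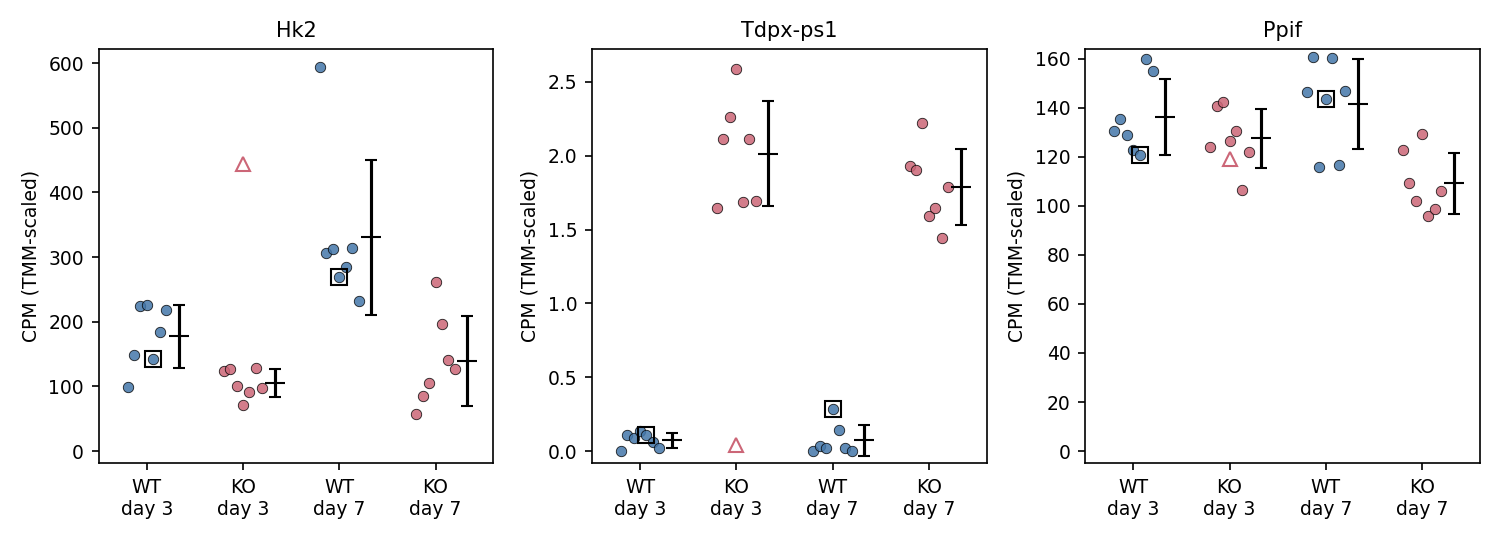
TMM-scaled CPM of Hk2, Tdpx-ps1 and Ppif in each of the 28 libraries (points; WT blue, KO red), with the mean and SD of each group of 7 as bars; squares mark d3_WT_381 and d7_WT_386, and the open triangle is the library labelled d3_KO_345, which entered no mean. Tdpx-ps1 is above 1.44 CPM in every KO library of the comparison and below 0.283 CPM or at it in every WT library, while Hk2 and Ppif overlap between genotypes.

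Ppif had a lower level in KO in 11 of 14 libraries set against the WT median of the day. It ranged from 121 to 160 CPM in WT day 3 (median 130) and from 107 to 142 CPM in KO day 3 (median 127). On day 7 the range was 116 to 161 CPM in WT (median 146) and 95.7 to 129 CPM in KO (median 106), and the groups overlapped on both days. Ppif had a log2 fold change of -0.24 (SE 0.07, adjusted p = 0.103), with -0.10 on day 3 and -0.38 on day 7 (difference -0.28, SE 0.12, unadjusted p = 0.0269, interaction adjusted p not under 0.05), and the antisense gene Ppifos overlaps Ppif. Among the 16 tested genes of the permeability transition and VDAC list, 13 had a negative log2 fold change and 2 a smaller unadjusted p than 0.05, Ppif and Vdac3 (-0.20), a share of 12.5%. The list median was -0.08. Tspo2 had the smallest p among the 3 members above 0, with a log2 fold change of 0.26.

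Nuclear-encoded subunits of the respiratory chain had lower fitted levels in KO, and the size of this difference rested on 2 WT libraries. Of 36 complex I genes tested, 35 had a negative log2 fold change and 16 a negative one with an unadjusted p under 0.05 (44.4%), with a list median of -0.21. Of 39 genes of complexes III to V all were negative and 19 had an unadjusted p under 0.05 (48.7%), with a median of -0.20. With d3_WT_381 and d7_WT_386 left out both medians were -0.05, with 28 of 36 and 33 of 39 genes still below 0. In that fit 1 gene of each list had an unadjusted p under 0.05, when 14.9% of 16443 genes did (6.82% higher and 8.11% lower). Leaving out d3_WT_381 alone left 6 complex I genes and 5 of complexes III to V at that level, and leaving out d7_WT_386 alone left 7 and 6, when 16.8% and 16.7% of all genes had one.

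The levels by library show this directly. The mean log2 CPM of the complex I genes was 7.10 in d3_WT_381 and 7.06 in d7_WT_386, whereas the other 26 libraries lay between 6.09 and 6.82. Ndufa1, an accessory subunit of complex I, ranged from 80.1 to 148 CPM in WT day 3 (median 90.2) and from 74.9 to 89.9 CPM in KO day 3 (median 79.4). Day 7 levels ranged from 59.1 to 132 CPM in WT (median 76.96) and from 66.3 to 84.2 CPM in KO (median 69.7). The maxima of WT were d3_WT_381 and d7_WT_386, and the remaining WT and KO libraries overlapped. Ndufa1 had a log2 fold change of -0.28 (adjusted p = 0.143) and -0.14 without those libraries. Atp5g2, a subunit of the proton-conducting ring of ATP synthase, had -0.26 (adjusted p = 0.113) and -0.17. Ndufs1, the iron-sulfur subunit of complex I, was at 0.00.

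Transcripts of the mitochondrial genome had medians of opposite sign with and without the same libraries. Of 12 tested, 11 had a negative log2 fold change and 0 had an unadjusted p under 0.05 (edgeR; DESeq2 called 0), with a median of -0.13. Without d3_WT_381 and d7_WT_386 the median was 0.35, with 11 above 0 and 6 at an unadjusted p under 0.05, when 14.9% of all genes had one. For mt-Nd1, a complex I subunit, the log2 fold change was -0.28 with all libraries and 0.25 without those. The member above 0 was mt-Atp6, an ATP synthase subunit, at 1.43 (SE 0.80). It held 787 counts in d3_KO_349 and 438 in d3_KO_385, against 5 to 89 in every other library, and it overlaps mt-Atp8 and mt-Co3. The share of mitochondrial ribosomal RNA, 0.352% to 3.95% in WT day 3 and 0.767% to 1.67% in KO day 3, varied most in WT, and its part in these values was not tested beyond the fit with it as a covariate.

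Enzymes of glycolysis, the pathway that Hk2 feeds, were spread around 0. Of 38 tested, 20 were above 0 and 18 below, 2 higher and 6 lower at an unadjusted p under 0.05 (21.1%, close to the 19.6% of all genes), and the median was 0.00 (-0.057 without d7_KO_420). Pfkp, the platelet-type phosphofructokinase, had the smallest p among those above 0. It ranged from 117 to 176 CPM in WT day 3 (median 145) and 124 to 197 CPM in KO day 3 (median 161), and from 167 to 251 CPM (median 237) and 221 to 360 CPM (median 243) on day 7. The genotypes overlapped on both days, and the log2 fold change was 0.19 (adjusted p = 0.212). Slc2a4, the insulin-responsive glucose transporter, is scarce here at 0.183 to 2.66 CPM and had -0.63 (adjusted p = 0.154). Slc16a1, the monocarboxylate transporter through which colonocytes take up butyrate, had -0.21.

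Neighbouring metabolic lists had medians near 0. The pentose phosphate and hexosamine list had a median of -0.03, with 0 of 28 genes higher and 4 lower at an unadjusted p under 0.05. Its smallest p was that of Slc37a4, the glucose 6-phosphate transporter of the endoplasmic reticulum, at -0.28, with all 14 KO libraries below the WT median of the day. Pgm1, a phosphoglucomutase, had 0.12. The TCA cycle list had a median of -0.07 and 0 higher and 5 lower of 25 at an unadjusted p under 0.05 (20%), with Idh2, the mitochondrial NADP-dependent isocitrate dehydrogenase, at -0.18 and Ogdh at 0.10. Mitophagy and dynamics genes had a median of -0.03 and 2 higher and 5 lower of 25 at that level (28%), with the mitophagy receptor Bnip3l at -0.27 and the fusion protein Mfn2 at 0.12. Fatty acid oxidation genes had a median of -0.06 and 2 higher and 4 lower of 35 at that level (17.1%), with Acat1, a ketone body enzyme, at -0.17 and the fatty acid translocase Cd36 at 1.27. Cd36 was at most 0.813 CPM in WT and reached 6.15 CPM in d7_KO_368, while only 6 of 14 KO libraries were above the WT median of the day. For synthesis of cholesterol and fatty acids the median was -0.04, and the elongase Elovl6 (0.30) and the fatty acid synthase Fasn (0.22) were among 4 genes higher and 0 lower at an unadjusted p under 0.05. Acss2, an acetyl-CoA synthetase gene, had the smallest p below 0, at -0.16. None of these passed the adjusted test in edgeR. Without d3_WT_381 and d7_WT_386 the medians were -0.01 for the TCA cycle, 0.02 for mitophagy and dynamics and -0.02 for fatty acid oxidation. At an unadjusted p under 0.05 (edgeR), 2, 2 and 1 members were then lower (8.11% of all genes) and 0, 1 and 2 higher (6.82%).

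Interferon-stimulated genes, which antiviral and immune cytokine signals induce, had the most one-sided set of positive values among the pathway lists. Of 36 tested, 35 had a log2 fold change above 0 and 22 were higher at an unadjusted p under 0.05 (61.1%, beside 7.89% of all genes), while none was lower at that level. The list median was 0.51, with 0.22 on day 3 and 0.82 on day 7. No member passed the adjusted test in edgeR, the smallest adjusted p being 0.0989. The DESeq2 Wald test called 4, Mx1, Ifi44, Stat2 and Gbp4, beside 1.78% of all genes. Without d3_WT_381 and d7_WT_386 the median was 0.63 and 27 had an unadjusted p under 0.05, when 14.9% of all genes had one. Over the fits that left out 1 library the count ranged from 14 (without d7_KO_421, median 0.43, when 17.2% of all genes had one) to 27 (without d3_WT_381, when 16.8% had one). In the day 3 libraries numbered d3_WT_346 to d3_WT_353, mean log2 CPM of the list was 2.74 to 3.25 in WT and 2.61 to 2.70 in KO. In those numbered d3_WT_381 to d3_KO_392 it was 3.72 in the WT library and 3.50 to 3.91 in KO. The WT libraries d3_WT_486 and d3_WT_487 had 2.43 and 3.08. The part of the animal number in the day 3 value was not tested.

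Mx1, an antiviral GTPase, ranged from 3.31 to 5.67 CPM in WT day 3 (median 4.85) and from 4.06 to 9.82 CPM in KO day 3 (median 7.12). On day 7 it ranged from 2.46 to 8.50 CPM in WT (median 3.98) and from 5.03 to 11.5 CPM in KO (median 8.22). The groups overlapped on both days, although 13 of 14 KO libraries lay above the WT median of the day, and the log2 fold change was 0.69 (SE 0.18, adjusted p = 0.0989). Stat2, a transcription factor that mediates type I interferon signals, ranged from 26.4 to 49.8 CPM in WT day 7 (median 35.4) and from 35.8 to 72.1 CPM in KO day 7 (median 58.8). On day 3 it ranged from 27.5 to 43.1 CPM in WT (median 35.9) and from 35.0 to 49.9 CPM in KO (median 39.3). KO values reached further up than WT on both days and overlapped them, with a log2 fold change of 0.40 (SE 0.11, adjusted p = 0.107).

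Gbp4, a guanylate-binding protein induced by interferon gamma, was above the WT median of the day in 14 of 14 KO libraries. It ranged from 0.838 to 3.27 CPM in WT day 3 (median 1.67), 1.70 to 6.50 CPM in KO day 3 (median 2.68), 2.23 to 21.2 CPM in WT day 7 (median 5.10) and 8.36 to 70.7 CPM in KO day 7 (median 20.1). The highest value was that of d7_KO_421, and the groups overlapped on both days. The log2 fold change was 1.12 (SE 0.35, adjusted p = 0.120) and 0.84 without d7_KO_421. Its relative Gbp2 had 1.16 (SE 0.49, adjusted p = 0.200), with 425 CPM in d7_KO_421 against a KO day 7 median of 91.7, and 0.77 without that library. Ifi44 had 0.92 (adjusted p = 0.0989), Gbp7 0.85, the RNA-activated synthetase gene Oas3 0.83, Irgm1 0.53 and the RNA sensor gene Ddx58 0.30. The 1 member below 0 was Isg20, an exonuclease gene, at -0.09.

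Promoters of 4 list members are shown because 22 of the 36 members had a positive value at an unadjusted p under 0.05. They are the 4 members with the smallest p among those whose promoter holds a match to an interferon response element. The motif searched was GAAA, any 2 bases and GAAA again, on either strand (TTTC, any 2 bases and TTTC), in windows of 250 bases before to 50 after the annotated start (RefSeq, GRCm38.p6); the match is in capitals and each sequence is on the strand of its gene.
Stat2, chr10:128270248-128270547, plus strand: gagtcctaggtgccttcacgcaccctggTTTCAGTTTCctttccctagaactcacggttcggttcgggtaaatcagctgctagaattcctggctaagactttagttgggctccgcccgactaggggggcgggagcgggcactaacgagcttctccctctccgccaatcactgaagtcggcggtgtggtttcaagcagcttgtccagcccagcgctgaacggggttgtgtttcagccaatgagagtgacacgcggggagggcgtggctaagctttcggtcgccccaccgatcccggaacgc
Gbp7, chr3:142530086-142530385, plus strand: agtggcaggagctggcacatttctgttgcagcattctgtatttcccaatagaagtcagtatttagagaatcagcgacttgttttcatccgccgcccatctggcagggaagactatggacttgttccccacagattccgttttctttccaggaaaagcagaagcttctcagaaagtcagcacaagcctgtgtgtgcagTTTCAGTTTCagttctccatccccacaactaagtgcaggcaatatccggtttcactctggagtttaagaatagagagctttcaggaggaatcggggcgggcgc
Ddx58, chr4:40239776-40240075, minus strand: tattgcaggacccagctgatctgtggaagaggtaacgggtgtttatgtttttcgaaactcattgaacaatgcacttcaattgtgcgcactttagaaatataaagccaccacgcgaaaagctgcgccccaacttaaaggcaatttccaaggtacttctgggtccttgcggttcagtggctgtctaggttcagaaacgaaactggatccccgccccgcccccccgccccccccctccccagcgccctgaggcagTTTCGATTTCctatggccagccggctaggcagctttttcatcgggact
Oas3, chr5:120777610-120777909, minus strand: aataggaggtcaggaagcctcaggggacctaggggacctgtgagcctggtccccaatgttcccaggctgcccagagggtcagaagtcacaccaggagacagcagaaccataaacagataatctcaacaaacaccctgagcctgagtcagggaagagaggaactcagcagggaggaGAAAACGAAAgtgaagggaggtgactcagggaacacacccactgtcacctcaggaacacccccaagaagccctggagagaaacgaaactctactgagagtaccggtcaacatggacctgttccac
Of the 26 list members tested that have a promoter in the table, 17 held the motif (65.4%), against 3.82% of 11268 genes tested with a promoter and 1131 of all 32851 windows (3.44%). Because the list was drawn up as interferon-stimulated genes, this comparison does not bear on the genotype difference. The motif was present in 11 of 16 members with an unadjusted p under 0.05 (68.8%) and in 6 of 10 others (60%). These are too few members to tell whether it goes with smaller p. A match is a match of letters, and no factor was measured there.

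Genes of antigen presentation had mostly positive values over both days, and the counts at an unadjusted p under 0.05 depended on single libraries. Of 14 MHC class I and immunoproteasome genes, 13 were above 0 and 4 were higher at an unadjusted p under 0.05 (28.6%), with a median of 0.18. Of 11 MHC class II genes, 8 were above 0 and 1 was at that level (9.09%), with a median of 0.27. Without d3_WT_381 the medians were 0.22 and 0.52, and 10 and 7 members had an unadjusted p under 0.05, when 16.8% of genes did. In the other direction, the class I count was 2 without d7_KO_421 and also 2 without d3_WT_353, and the class II median was 0.15 without d3_KO_392. With all 28 libraries the class I median was 0.006 on day 3, with 7 members above 0, and 0.28 on day 7, with 14 above 0. For class II the median was 0.25 on day 3, with 11 above 0, and 0.48 on day 7, with 7 above 0. The smallest p over both days in each list was that of its transactivator. Nlrc5, the class I transactivator, ranged from 1.08 to 6.29 CPM in WT day 3 (median 3.98), 2.82 to 9.14 CPM in KO day 3 (median 4.82), 3.59 to 21.9 CPM in WT day 7 (median 9.21) and 11.1 to 30.9 CPM in KO day 7 (median 24.3). Ciita, the class II transactivator, ranged from 0.213 to 4.42 CPM (median 1.88) and 1.33 to 6.29 CPM (median 2.76) in WT and KO on day 3, and from 2.35 to 9.60 CPM (median 5.53) and 5.29 to 24.1 CPM (median 15.2) on day 7. The genotypes overlapped on both days for both genes. The log2 fold change was 0.78 for Nlrc5 (SE 0.29, adjusted p = 0.159) and 1.12 for Ciita (SE 0.35, adjusted p = 0.120), while that of the peptide transporter gene Tap1 was 0.45. H2-M3 (-0.07) and H2-Oa (-0.27) had the smallest p among members below 0.

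Genes of cell death programmes showed no common direction. In the BCL2 family and caspase list 18 genes were above 0 and 19 below, with a median of -0.01 and 3 of 37 at an unadjusted p under 0.05 (8.11%), a smaller share than that of all genes. Casp2, an initiator caspase, had 0.23 (adjusted p = 0.137), and Birc5, the survivin gene, which also belongs to the mitosis genes, had -0.39 (adjusted p = 0.154). In the necroptosis and pyroptosis list 17 were above 0 and 8 below, with a median of 0.09. Il18, the inflammasome cytokine made by epithelium, ranged from 77.4 to 168 CPM in WT day 3 (median 94.6) and from 66.9 to 113 CPM in KO day 3 (median 80.3). Day 7 levels ranged from 85.8 to 178 CPM in WT (median 140) and from 63.4 to 117 CPM in KO (median 78.4). KO was on the low side of WT with overlap on both days, and the log2 fold change was -0.52 (SE 0.13, adjusted p = 0.0989). Dfna5, which encodes the pore-forming gasdermin E, had -0.32 (adjusted p = 0.103), and DESeq2 called both genes lower. The highest WT day 3 values of Il18 were those of d3_WT_486 and d3_WT_487, at 156 and 168 CPM. The other WT day 3 libraries held 77.4 to 125 CPM. No KO library has a number near those of d3_WT_486 and d3_WT_487, which were also the highest of WT day 3 for Nupr1, Ces2g and Scnn1b, given below. The part of the animal number in these values was not tested beyond the fit with numbers under 400 as a covariate. Zbp1, a nucleic acid sensor upstream of necroptosis that interferon also induces, had 0.50, and Nlrp6, an epithelial inflammasome sensor, had 0.25 (adjusted p = 0.246).

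Genes of the proliferation list had mostly negative values. Of 31 proliferation genes, 12 were lower and 1 higher at an unadjusted p under 0.05 (41.9% in all), and the list median was -0.20. Those lower included the mitotic genes Ccnb2 (-0.51), Cdc20 (-0.41), Ccnb1 (-0.45), Cenpa (-0.40) and Cdk1 (-0.41), and the 1 higher was the replication helicase gene Mcm2 (0.28). Ccnb2, cyclin B2, ranged from 23.7 to 42.2 CPM in WT day 3 (median 30.0), 14.1 to 33.0 CPM in KO day 3 (median 23.2), 25.4 to 43.4 CPM in WT day 7 (median 32.4) and 11.1 to 28.1 CPM in KO day 7 (median 24.8). Of the 14 KO libraries 13 lay below the WT median of the day, and the groups overlapped. Ccnb2 had a log2 fold change of -0.51 (SE 0.13, adjusted p = 0.0989), and without d3_WT_346 its adjusted p was 0.0399. Mean log2 CPM of the list was lowest in d7_KO_420, at 3.75, and d3_KO_350, at 4.36. Without d3_WT_381 and d7_WT_386 the median was -0.16, with 8 lower and 4 higher at an unadjusted p under 0.05 (8.11% and 6.82% of all genes).

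Stem cell and Wnt genes had 22 of 24 members above 0, a median of 0.22 and 3 members higher at an unadjusted p under 0.05 (12.5%). Ccnd1, cyclin D1, ranged from 65.9 to 98.8 CPM in WT day 3 (median 83.2) and from 78.0 to 107 CPM in KO day 3 (median 86.3). On day 7 it ranged from 66.5 to 138 CPM in WT (median 125) and from 59.7 to 242 CPM in KO (median 174), with overlap on both days and a log2 fold change of 0.36 (adjusted p = 0.167). Hopx, a reserve stem cell marker, had the smallest p below 0, at -0.17. Regenerative epithelium genes had a median of -0.01, with the secreted chaperone gene Clu at -0.43 and the growth control gene Yap1 at 0.11.

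In the list of endoplasmic reticulum chaperones and the unfolded protein response 20 of 25 members were above 0, with a median of 0.14, and 5 were higher at an unadjusted p under 0.05 (20%). Edem1, which sends misfolded glycoproteins to degradation, ranged from 107 to 145 CPM in WT day 3 (median 130), 133 to 156 CPM in KO day 3 (median 140), 99.9 to 136 CPM in WT day 7 (median 117) and 124 to 167 CPM in KO day 7 (median 141). All 14 KO libraries were above the WT median of the day, with overlap on both days, and the log2 fold change was 0.21 (SE 0.05, adjusted p = 0.0989). Hyou1 (0.40) and Creld2 (0.41) were among the others at that level, and Agr2, a goblet cell disulfide isomerase gene, had the smallest p below 0, at -0.23. Leaving out d3_WT_346, the WT day 3 library with the highest Hyou1 at 209 CPM, raised the count at an unadjusted p under 0.05 from 5 to 14, when 23% of all genes had one.

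The ATF4 stress list had a median of 0.02. Nupr1, a stress-induced chromatin protein, had the smallest p, ranging from 237 to 456 CPM in WT day 3 (median 282), 175 to 289 CPM in KO day 3 (median 221), 205 to 537 CPM in WT day 7 (median 275) and 128 to 323 CPM in KO day 7 (median 141). The genotypes overlapped on both days, and the log2 fold change was -0.56 (SE 0.15, adjusted p = 0.103). Hspd1, a mitochondrial chaperonin, had 0.31. Of 29 NRF2 antioxidant genes, 23 were below 0 and 8 were lower at an unadjusted p under 0.05 (27.6%), with a median of -0.13. Without d3_WT_381 and d7_WT_386, 4 were lower at that level, beside 8.11% of all genes. Gsta3, a glutathione transferase, was below the WT median of the day in 14 of 14 KO libraries, at 12.3 to 21.4 CPM in KO day 3 (median 18.5) against 16.7 to 29.4 CPM in WT (median 24.8). Day 7 levels ranged from 6.20 to 24.5 CPM in KO (median 15.1) and from 11.2 to 39.9 CPM in WT (median 32.1), with overlap and a log2 fold change of -0.67 (SE 0.18, adjusted p = 0.101). Txnrd1, thioredoxin reductase, had 0.13.

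Per2 and Mtmr4 separated the genotypes on day 7 and overlapped on day 3. Per2, a repressor of the circadian clock, ranged from 8.45 to 39.1 CPM in WT day 3 (median 17.5) and 14.9 to 44.5 CPM in KO day 3 (median 31.3). On day 7 it ranged from 11.4 to 26.05 CPM in WT and 26.98 to 46.4 CPM in KO, without overlap, which was true of 50 genes (0.306%) on that day. The log2 fold change was 0.65 (SE 0.17, adjusted p = 0.101), while 0 other clock genes of the 21 tested had an unadjusted p under 0.05. The clock list median was 0.08, and -0.025 without d7_KO_420. Mtmr4, an endosomal lipid phosphatase gene, ranged from 49.9 to 75.2 CPM in WT day 3, 68.5 to 81.7 CPM in KO day 3, 57.2 to 72.9 CPM in WT day 7 and 74.2 to 89.5 CPM in KO day 7. It did not overlap on day 7, all 14 KO libraries were above the WT median of the day, and the log2 fold change was 0.26 (SE 0.05, adjusted p = 0.0665). The time of day at sampling is not given in the sources used here.

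Lists of differentiated function had small medians with individual members below 0. Colonocyte transport genes had a median of -0.07, with 0 higher and 5 lower at an unadjusted p under 0.05, and the epithelial sodium channel subunit Scnn1b had -0.61 (adjusted p = 0.115) and the sulfate transporter Slc26a2 had 0.14. Carboxylesterase and xenobiotic genes had a median of -0.12, with 0 higher and 5 lower. Ces2g ranged from 24.4 to 38.9 CPM in WT day 3 (median 28.4), 13.98 to 32.4 CPM in KO day 3 (median 26.8), 10.46 to 23.4 CPM in WT day 7 (median 14.8) and 7.70 to 12.5 CPM in KO day 7 (median 8.87). The genotypes overlapped on both days, with a log2 fold change of -0.50 (SE 0.13, adjusted p = 0.103), and Ces1c had 0.49. The tight junction gene Cldn8 had -0.51 (adjusted p = 0.133), and Vil1, whose promoter drives the Cre, had 0.22 (adjusted p = 0.162). Mt4, a squamous epithelium metallothionein found here at no more than 1.19 CPM, had 1.33 (adjusted p = 0.120), and the zinc transporter Slc39a8 had -0.10. Hypoxia genes had a median of 0.05, with the trefoil factor Tff3 at -0.35 and Epas1 at 0.16. The antimicrobial list had a median of -0.10, with Saa2 at -0.81 and Lyz1 at 0.79, and the chemokine and cytokine list had 0.09, with Osmr at 0.65. Single libraries set the sign of several of these medians. Without d7_KO_420 the chemokine median was -0.055, the hypoxia median -0.034 and the antimicrobial median -0.27, and without d7_WT_356 the antimicrobial median was 0.016. The Hox and gut position list had a median of -0.13, with Hoxd9 at -0.86 and Hoxb9 at 0.07.

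**Figure D3:**
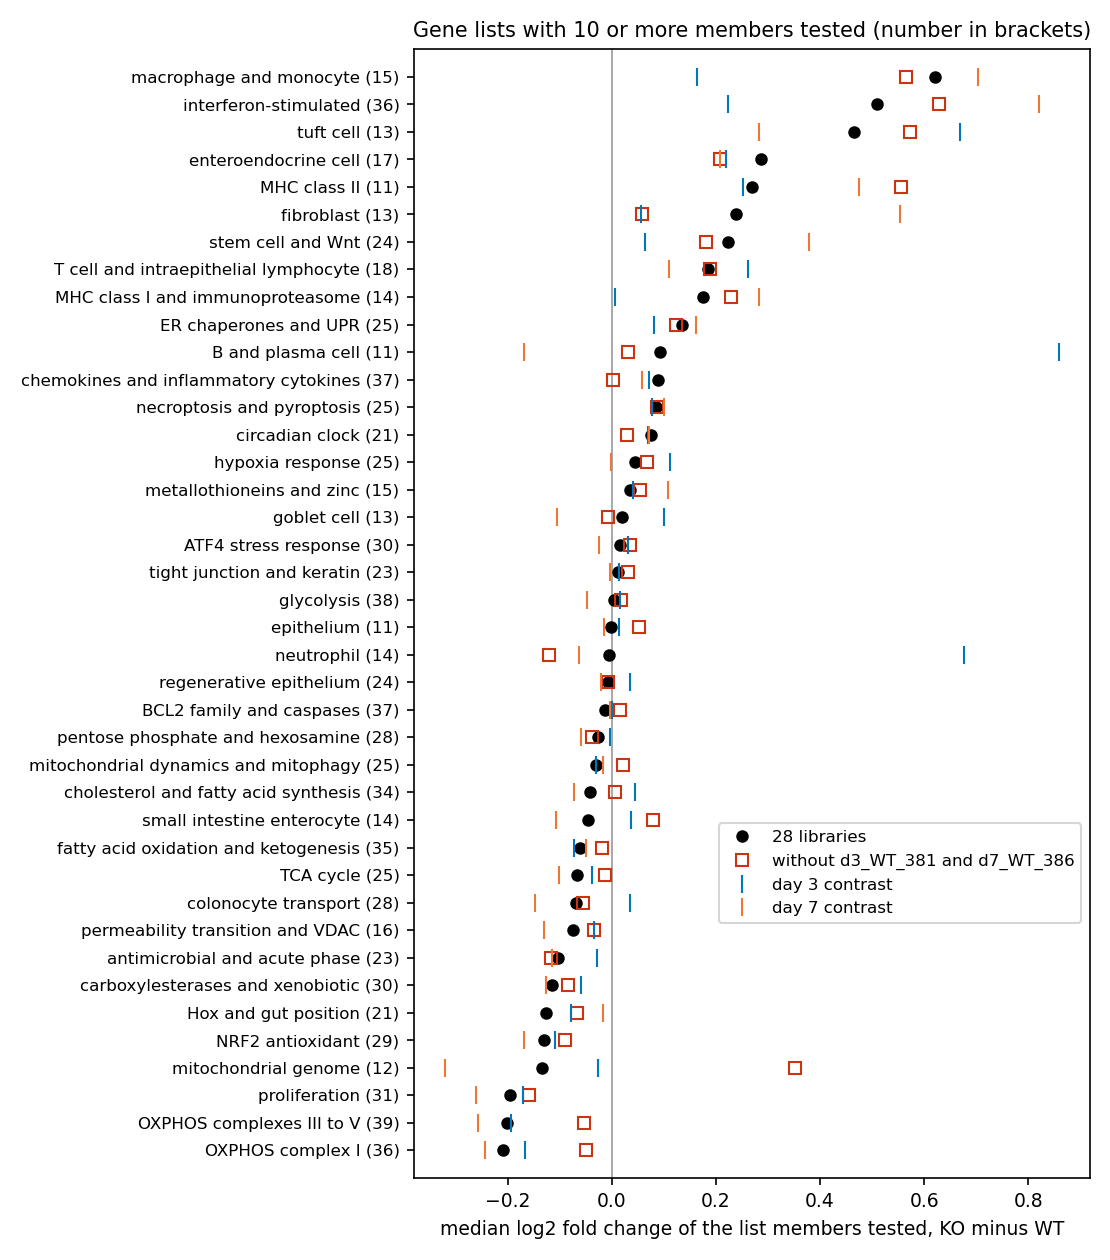
Median log2 fold change of KO minus WT over the tested members of each list with 10 or more members tested (number in brackets), with 28 libraries (black points), without d3_WT_381 and d7_WT_386 (open squares) and for each DSS day (ticks, blue day 3 and orange day 7). The interferon-stimulated list has a median of 0.51 and stays positive in every fit shown; both oxidative phosphorylation lists move from about -0.2 to -0.05 without the 2 WT libraries.

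Markers of tuft cells, which are rare chemosensory cells of the epithelium, had positive values in KO for all 13 members tested, with a median of 0.47, 0.67 on day 3 and 0.28 on day 7. At an unadjusted p under 0.05, 6 were higher (46.2%), with Il17rb, an interleukin 25 receptor subunit, at 0.37 (adjusted p = 0.113). Trpm5, the taste-type cation channel of tuft cells, ranged from 5.97 to 16.3 CPM in WT day 3 (median 9.46) and from 5.66 to 25.7 CPM in KO day 3 (median 19.4). Day 7 levels ranged from 3.36 to 7.70 CPM in WT (median 4.26) and from 3.26 to 9.73 CPM in KO (median 6.96), and its log2 fold change was 0.61 (adjusted p = 0.135). The genotypes overlapped widely: on day 3 the mean log2 CPM of the list was 1.91 to 2.29 in 4 KO libraries and 0.19 to 0.91 in the 3 others. In WT day 3 it was 2.07 in d3_WT_381 and 0.17 to 1.34 in the other libraries. Leaving out d3_KO_387 left 3 members at an unadjusted p under 0.05, when 17.2% of all genes had one, and leaving out d3_WT_381 left 10, with a list median of 0.60. On day 3 the libraries with the animal numbers of d3_WT_346 to d3_WT_353, of both genotypes, had mean log2 CPM of 0.17 to 0.91, and those numbered d3_WT_381 to d3_KO_392 had 1.91 to 2.29. The WT libraries d3_WT_486 and d3_WT_487 had 1.34 and 1.28. The run of numbers from d3_WT_381 to d3_KO_392 holds 1 WT library and 4 KO libraries, and the part of the animal number in the result was not tested. In bulk libraries, more cells of a type and more RNA per cell cannot be told apart.

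Enteroendocrine markers had 10 of 17 members above 0, a median of 0.29 and 6 higher at an unadjusted p under 0.05 (35.3%). These included the lineage factor Neurod1 (0.37, adjusted p = 0.128) and the granule protein gene Chgb (0.40). Goblet cell markers had a median of 0.02, with the membrane mucin gene Muc4 at 0.51 (adjusted p = 0.125) and Tff3 at -0.35. Colonocyte and general epithelial markers had medians of 0.09 and 0.00, with Ceacam20 at 0.33, and small intestine enterocyte markers had -0.05 with 0 of 14 at an unadjusted p under 0.05 (edgeR; DESeq2 called 0). The summed level of the small intestine list was 402 to 1469 CPM on day 3 and 533 to 999.2 CPM on day 7, and Apob had 0.30. None of these lists held a gene that passed the adjusted test in edgeR.

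Macrophage and monocyte markers had 14 of 15 members above 0, with a median of 0.62 and 7 higher at an unadjusted p under 0.05 (46.7%). Lyz2, lysozyme of myeloid cells, ranged from 3.25 to 6.21 CPM in WT day 3 (median 5.56) and from 2.69 to 13.9 CPM in KO day 3 (median 6.30). On day 7 it ranged from 12.0 to 63.7 CPM in WT (median 28.6) and from 18.8 to 214 CPM in KO (median 86.6), with a log2 fold change of 0.91 (SE 0.31, adjusted p = 0.132). The highest KO value of Lyz2 was that of d7_KO_368, the groups overlapped on both days, and leaving that library out left 2 members at an unadjusted p under 0.05, when 16.7% of all genes had one. Summed, the 15 markers ranged from 103 to 427 CPM in WT day 7 and from 112 to 658 CPM in KO day 7, and none of them was at 0 in all libraries. These macrophage values stood beside those of the interferon-stimulated and MHC class II lists, and their part in them was not tested.

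The other immune and stromal marker lists had no direction common to all of them. Neutrophil markers had 7 members above 0 and 7 below, a median of -0.01 and 0 of 14 at an unadjusted p under 0.05 (edgeR; DESeq2 called 0), and the median was -1.01 without d7_KO_420 and 0.50 without d7_WT_419, when 2 and 13 members were above 0. Their summed level ranged from 106 to 1148 CPM in WT day 7 and from 44.6 to 1867 CPM in KO day 7. The smallest p was that of Retnlg, at -0.51. T cell and intraepithelial lymphocyte markers had a median of 0.19, with 14 of 18 above 0 and 1 higher at an unadjusted p under 0.05 (5.56%). Leaving out 1 library at a time moved this median between 0.09 and 0.32. Cd8b1 had 0.84, on 1 to 22 counts per library. B and plasma cell markers had a median of 0.09, with Derl3 at 0.29, and fibroblast markers 0.24, with Pdgfrb at 0.24. The fibroblast median was -0.24 without d3_KO_349, with 5 of 13 members above 0, and the B and plasma cell median was -0.033 without d7_KO_367. Of smooth muscle and endothelial markers, Synpo2 had -0.67 (adjusted p = 0.0989) and Vwf -0.45, both at low level. Among the erythrocyte markers Alas2 had 0.79, with 44.4 CPM in d7_KO_420 and at most 7.63 CPM in the other KO day 7 libraries. The erythrocyte list median was 0.33, and -0.48 without d7_KO_420. Among markers of enteric neurons and glia Tubb3 had 0.55.

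**Figure D4:**
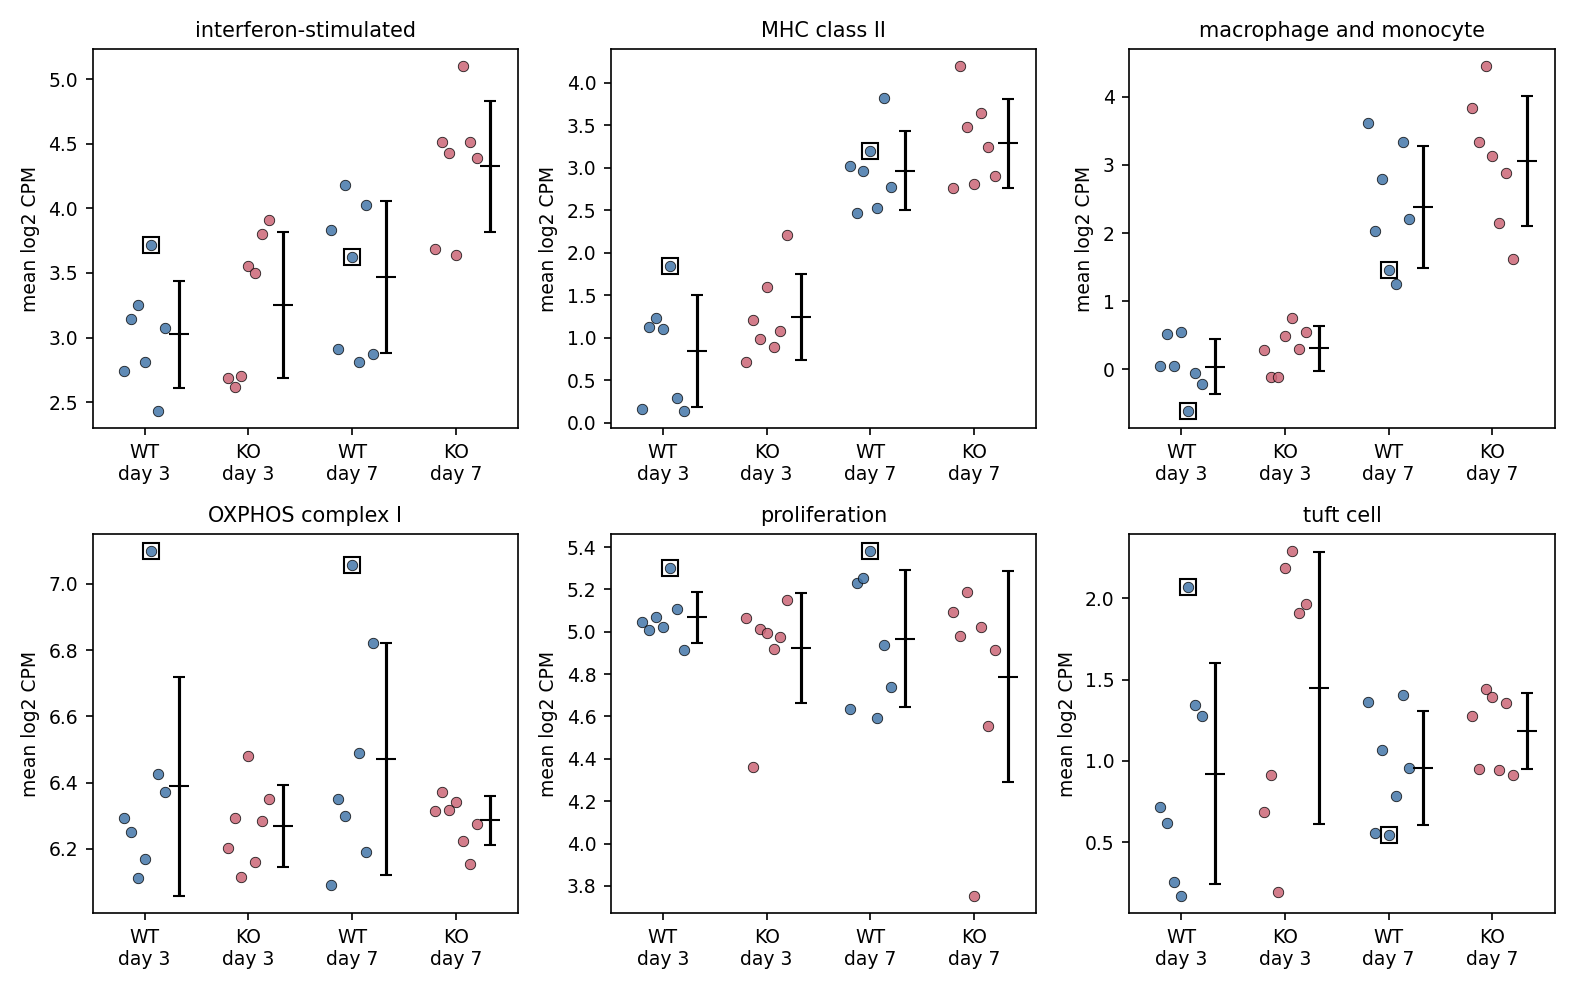
Mean log2 CPM of the members of 6 lists in each of the 28 libraries (points; WT blue, KO red), with the mean and SD of each group of 7 as bars and squares around d3_WT_381 and d7_WT_386. The interferon-stimulated level reaches 5.10 in KO day 7 against at most 4.18 in WT day 7; the marked WT libraries hold the highest complex I levels, 7.10 and 7.06, and every panel shows overlap of the genotypes within a day.

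The additive model assumes 1 genotype effect for both days, and the test of a difference between the days called 0 of 16323 genes in edgeR (0%; 0 also in DESeq2). At an unadjusted p under 0.05 the interaction gave 409 genes (2.51%). Tested within a day, 1 gene was called on day 3 (0.00613%) and 1 on day 7 (0.00613%), Tdpx-ps1 in each, with 713 genes (4.37%) and 2717 genes (16.6%) at an unadjusted p under 0.05. No library is shared between the day 3 and day 7 differences, and across 16323 genes their log2 fold changes had a Pearson correlation of 0.31 and the same sign in 70.4%; genes are not independent replicates. Leaving out d3_WT_381 and d7_WT_386 made these 0.20 and 61.4%. The median of the interferon-stimulated list was 0.82 on day 7 and 0.22 on day 3, that of the macrophage list 0.70 and 0.16, and that of the tuft cell list 0.28 and 0.67. The differences of these medians were not tested.

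The genes named here had the smallest interaction p among genes with a mean log2 CPM of at least 2. They were Unc93b1, which carries Toll-like receptors to endosomes, the cytochrome P450 genes Cyp2d12 and Cyp2f2, and the immunoglobulin genes Igha and Igkc, all with an interaction adjusted p of 1.00 (edgeR). Unc93b1 ranged from 40.1 to 48.3 CPM on day 3 in both genotypes together, from 42.3 to 56.2 CPM in WT day 7 and from 56.1 to 72.3 CPM in KO day 7. Its log2 fold change was -0.07 on day 3 and 0.35 on day 7. Cyp2f2 ranged from 0.192 to 3.77 CPM in WT day 7 (median 1.28) and from 0.265 to 0.496 CPM in KO day 7 (median 0.362), with -2.44 on day 7 and -0.23 on day 3. Cyp2d12 had 0.35 on day 3 and -1.76 on day 7. Igha had 0.86 and -1.44 and Igkc 0.86 and -1.27, and both are products of plasma cells.

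**Figure D5:**
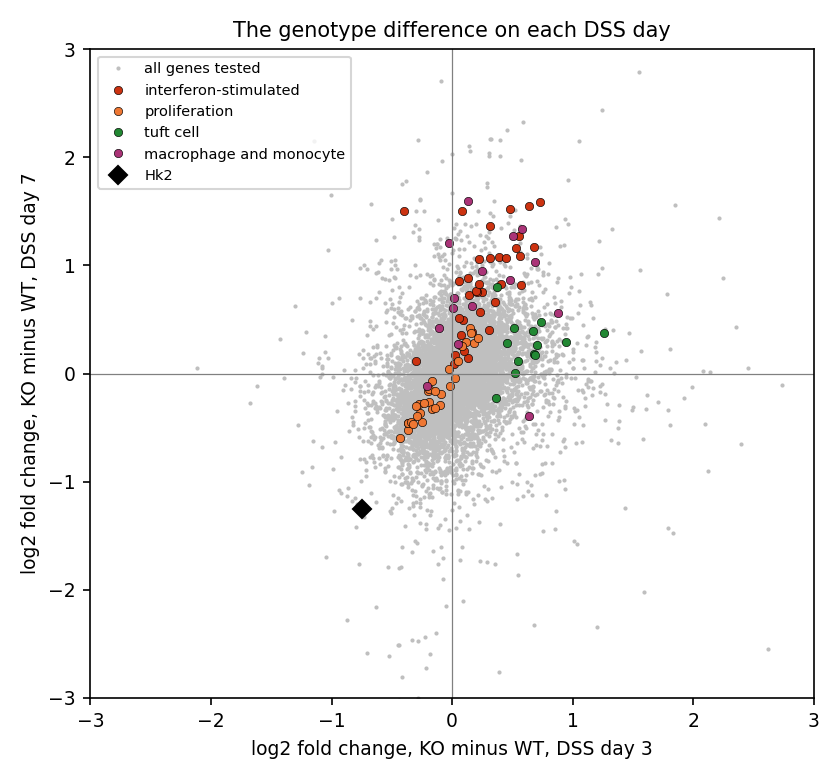
Log2 fold change of KO minus WT on DSS day 3 (horizontal axis) and on DSS day 7 (vertical axis) for the genes tested, with members of 4 lists coloured and Hk2 as a diamond; 7 genes lie outside the axis limit of 3. Interferon-stimulated genes lie mostly in the upper right with larger values on day 7, and Hk2 lies in the lower left at -0.75 and -1.26.

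The number of genes called depended on the test and on single libraries, while Tdpx-ps1 was called in every fit that tested it. The DESeq2 Wald test called 267 of 15028 genes (1.78%), 86 higher and 181 lower, including 86 of the 88 genes with an edgeR adjusted p under 0.1. DESeq2 was run with its defaults, which differ in dispersion estimates, test, filtering of genes and replacement of outlying counts. Which of these moved the count was not tested. Without d3_WT_381 and d7_WT_386 DESeq2 called 63 (0.39% of genes), 22 higher and 41 lower, and on day 7 with all libraries 189 (1.13%). With the neutrophil level as a covariate edgeR called 18 (0.11%). Those DESeq2 called over both days with all libraries included Ppif, Gsta3, Nupr1, Ces2g, Ccnb2, Il18, Dfna5 and Synpo2 as lower and Per2, Edem1, Il17rb and the 4 interferon-stimulated genes as higher. Without d3_WT_346 edgeR called 213 genes (1.3%), 70 higher and 143 lower, and 154 of them were also called by DESeq2. Without d7_KO_420 it called 28 over both days (0.17%) and 1045 on day 7 (6.34%), 461 higher and 584 lower. For day 7 alone it called 139 without d7_WT_370 (0.845%) and 61 without d7_WT_419 (0.372%), and over both days 5 without d3_WT_353 (0.0303%). The other single leave-outs gave at most 3 over both days, 2 on day 3 and 4 on day 7. Without d3_WT_381 and d7_WT_386 edgeR called 2 (0.0122%), Tdpx-ps1 and Gm15784, a processed pseudogene with a log2 fold change of 1.89.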

How the data were processed

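The deposited files hold raw counts of reads per gene for each of 2 lanes per library, which the authors made with featureCounts 1.6.2 with strand ignored, per the file headers (1.5.2 per the submitters' processing notes, which also name Trim Galore, STAR and GRCm38). Lanes were summed; 45143 of 46078 gene identifiers are in GENCODE M21. Genes were filtered with filterByExpr over the 4 day and genotype groups, scaled with TMM and tested with edgeR 4.0.16 (quasi-likelihood) under R 4.3.3, with Benjamini-Hochberg adjustment over all genes and a threshold of 0.05. Day contrasts and the interaction came from a model of group means. Levels are TMM-scaled CPM; log2 CPM used a prior count of 2. DESeq2 1.42.0 was an alternative, and BLAST+ 2.17.0 aligned Tdpx-ps1. The comparison, gene lists and named genes were chosen with earlier results of these data known; members of lists other than the smallest p in each direction were picked after their values were seen. A few genes that the naming rule covers are not reported here. The procedure was tested on simulated counts. Counts on overlapping genes cannot be separated (Gbp4 with Gbp8 and Gbp9, Cdc20 with Elovl1, Il18 with Bco2).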

Additional observations from a re-analysis of the deposited data

Results flagged for a closer look

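For named genes and list levels, 480 groups of 7 libraries were examined. In 44 of them (9.17%) the gap of the highest or lowest library to its neighbour exceeded the Dixon critical value. For independent, normally distributed values chance gives about 1 in 20. Gene levels were CPM without logs, the groups share libraries and some genes were picked after their values were seen. The share of 9.17% can therefore not be set against that rate. The library concerned was d3_WT_381 in 10 of the 44 groups and d7_KO_420 in 9.

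In CPM, the high values of d3_WT_381 in WT day 3 were 274 for Prdx2, 35.9 for Zbp1, 148 for Ndufa1, 22.3 for Ndufb4, 441 for Uqcr10, 411 for Atp5e and 38.2 for Atp5g2. In WT day 3 also stood apart Hspd1 at 403 and Slc37a4 at 15.7 (both d3_WT_346), Lyz2 at 3.25, Cyp2d12 at 31.98 and Igha at 4.25. In WT day 7 these were Hk2 at 595 (d7_WT_356) and Nupr1 at 537 (d7_WT_393). In KO day 3 they were Hk3 at 0.318, Gbp4 at 6.50, Gbp2 at 81.9, Igha at 10.9 and Igkc at 5.80. In KO day 7 they were Hkdc1 at 172, Nlrp6 at 149.5, Ndufa1 at 84.2 and Igha at 13.2 (all d7_KO_420), Gbp4 at 70.7, Oas3 at 34.8 and Gbp2 at 425 (all d7_KO_421), Per2 at 46.4 and Pfkp at 359.6.

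Mean log2 CPM of whole lists stood apart in the same way. In WT day 3 this was 7.10 for complex I, 8.64 for complexes III to V, 7.77 for endoplasmic reticulum chaperones, 6.32 for MHC class I and 4.09 for regenerative epithelium. In KO day 3 it was 4.36 for proliferation, 8.39 for goblet cells and 2.32 for small intestine enterocytes. In WT day 7 it was 5.66 for mitochondrial dynamics and 5.77 for antimicrobial genes. In KO day 7 it was 5.38 for glycolysis, 6.69 for the permeability transition list, 6.43 for fatty acid oxidation, 4.98 for the clock, 5.57 for metallothioneins and 4.70 for the ATF4 list.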

How the results depend on the processing

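The count of genes called over both days (1) became 4 with no filter on low counts, 0 with a mean CPM of at least 1 (at which Tdpx-ps1 was not tested), 18 with the neutrophil level as a covariate, 4 with the mitochondrial rRNA share as a covariate, 5 in 37 libraries with day 0, 2 without d3_WT_381 and d7_WT_386, and 267 with the DESeq2 Wald test. On day 3 it became 0 with a mean CPM of at least 1 and 2 without those 2 libraries. On day 7 it became 2 with no filter, 0 with a mean CPM of at least 1, 10 with the neutrophil covariate, 5 with animal number under 400 as a covariate and 189 with DESeq2. Leaving out 1 library at a time gave 1 to 213 over both days, 1 to 2 on day 3, 1 to 1045 on day 7 and 0 to 0 for the interaction. The cause was not tested. The log2 fold change of Hkdc1 ranged from -0.068 (without d7_KO_420) to 0.21 (without d3_WT_381). Leaving out d3_WT_381 and d7_WT_386 together was chosen after seeing the data. The groups share no replicate numbers, and the sample labels used here do not name the litter or cage of a library. Pairing by litter or cage was therefore not possible, and no term for either entered the model. Depth limits the size of the Tdpx-ps1 difference, with 0 to 6 counts in each WT library.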
